A study of Mus musculus with 8 samples.

Results

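Transcripts of 8 genes of the BCL2 family were followed in murine acute myeloid leukaemia (AML) cells from mice treated with an inhibitor of pyrimidine synthesis. The 8 genes were chosen by symbol, as family members that are not counted among the p53 target genes, and each matched 1 of the 54838 Ensembl genes in the count table. They are the survival genes Bcl2, Bcl2l1 and Mcl1, the effector Bak1, and the BH3-only genes Bid, Bcl2l11, Bmf and Bad. All 8 passed the filter on low counts. The leukaemia carries the fusion gene RUNX1-RUNX1T1 on a C57BL/6 background and had been transplanted into Ptprca recipient mice, which per the labels were sublethally irradiated. Cells were sorted by fluorescence from bone marrow and spleen. A figure legend of the study describes them as positive for cKit and negative for CD11b, while its text calls them cKit high. The Vehicle group held 4 samples and the AG636 group 4 samples from mice given AG636, an inhibitor of the enzyme DHODH, by oral gavage at 100 mg/kg. The figure legend of the study gives a day of treatment. Mouse ages and the tissue of each sample are not in the labels, nor is whether each sample was a separate mouse. The legend names fewer mice per group than there are samples here, so samples may share a mouse, n counts samples, and the p-values measure only the spread between these samples.

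Cells die by the mitochondrial route of apoptosis when BAX or BAK, the effectors, open pores in the outer mitochondrial membrane and release cytochrome c. BCL2, BCL-XL (the main product of Bcl2l1) and MCL1 hold the effectors in check, and MCL1 protein is short-lived and depends on continued translation. BH3-only proteins, among them BID, BIM (the product of Bcl2l11), BMF and BAD, respond to stress or growth factor withdrawal and bind the survival proteins, and some of them also activate the effectors directly. Myeloid leukaemias often depend on BCL2 or MCL1, which is why drugs that mimic BH3 peptides are used against them.

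The libraries were of the QuantSeq type, primed at the poly-A tail, where longer transcripts gain no extra reads. Levels were compared between genes on this basis, although other effects, such as overlap with another gene, can still change a count. Levels are given as CPM, the count scaled to a common library size. Samples held 6120030 to 7162036 counts each, and 3 counts in a sample correspond to 0.434 to 0.479 CPM. The replicates of each group differed by more than counting noise, with chi-square values per degree of freedom of 3.92 to 13.3 among the Vehicle pairs and 14.3 to 25.6 among the AG636 pairs. Vehicle sample 4 stood apart from the other Vehicle samples, at 9.38 to 13.3 against 3.92 to 4.61 among the rest.

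The labelled cell type was compared with marker genes. Kit (153 to 252 CPM), Myb and Gata2 were well expressed, while the myeloid progenitor genes Mpo and Flt3 had at most 33 and 5 counts in any sample and Ptprc, which encodes CD45, 13 to 64 counts. Cd34 measured 2.43 to 12.6 CPM in Vehicle and 4.51, 5.11, 35.6 and 4.05 CPM in AG636 samples 1 to 4. Erythroid genes were abundant: the 9 markers, mostly globins, summed to 2340 to 6150 CPM in Vehicle and 4790 to 6290 CPM in AG636. By limma-voom 1 of them passed the test (Hbb-bt, higher), while edgeR and DESeq2 each called 2 of them higher. Slc4a1 averaged 12.4 CPM in Vehicle and 41.5 CPM in AG636 (log2 fold change 1.58, limma-voom adjusted p = 0.0501). Markers of other cells were lower, with sums for 7 neutrophil genes of 40.2 to 94.4 CPM in Vehicle and 13.8 to 179 CPM in AG636. Over all samples the sums were 3.84 to 9.97 CPM for 6 macrophage genes, 4.76 to 18.9 CPM for 6 B cell genes and 2.43 to 20.1 CPM for 8 T and NK cell genes. Of these markers of other cells, only Cd79a passed the test by limma-voom, being higher in AG636 at no more than 22 counts in a sample. No progenitor, neutrophil, macrophage or T and NK cell gene passed by limma-voom, edgeR or DESeq2, with 3 of the 12 tested under an unadjusted p of 0.05 in limma-voom. Of all genes tested, 14.0% were called by limma-voom. No marker was at 0 in all samples. In sorted bulk samples, fewer cells of a type and less RNA per cell cannot be told apart.

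The sequences before the start sites of 2 members are shown because their transcripts differed most among the BH3-only genes in opposite directions, Bad downwards and Bcl2l11 upwards, although the test was passed by Bad alone. Bcl2l11 was chosen for this after its values were seen. Both sequences are from RefSeq (GRCm38.p6), 250 bases up to the first start site, on the + strand, and capitals mark every match, on either strand, to GGGCGG (the GC box), GTAAACA (a forkhead motif), CCGGAA (the core of ETS sites) or CACGTG (the E-box).
Bad, chr19:6941611-6941860: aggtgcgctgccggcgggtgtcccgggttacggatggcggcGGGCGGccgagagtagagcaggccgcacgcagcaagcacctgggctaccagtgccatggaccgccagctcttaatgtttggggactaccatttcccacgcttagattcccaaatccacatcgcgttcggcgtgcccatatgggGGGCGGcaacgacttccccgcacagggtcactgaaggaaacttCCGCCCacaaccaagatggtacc
Bcl2l11, chr2:128125788-128126037: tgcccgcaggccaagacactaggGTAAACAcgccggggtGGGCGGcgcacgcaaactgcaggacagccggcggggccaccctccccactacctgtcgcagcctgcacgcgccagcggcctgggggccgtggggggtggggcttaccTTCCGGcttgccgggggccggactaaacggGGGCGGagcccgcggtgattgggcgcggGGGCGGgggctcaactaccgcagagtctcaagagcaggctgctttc
The Bad window held 3 GC boxes, beginning 209, 66 and 23 bases before the start, the last of them on the other strand, and none of the other 3 motifs. The Bcl2l11 window also held 3 GC boxes, at 211, 74 and 46 bases, and in addition GTAAACA at 227 bases and CCGGAA, read on the other strand, at 104 bases. Of the windows not shown, that of start site 2 of Bad held CCGGAA at 175 bases. That of start site 2 of Bcl2l11 held GC boxes at 181 and 127 bases. Among all 32851 RefSeq promoter windows of this length, 32.7% held the GC box, 3.17% GTAAACA, 12% CCGGAA and 6.02% CACGTG. Of the 14 windows of the 8 members, the one shown for Bcl2l11 was the only one with GTAAACA, and none held CACGTG. A match in these letters is a description of the window and does not show that a factor binds there.

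Mcl1 was by far the most abundant member. In Vehicle it averaged 121 ± 12.1 CPM (SD, n = 4), 2.81 times the next gene, and it made up 65.6% ± 2.34 of the summed level of the 3 survival genes. Bad (43.2 ± 5.74 CPM) and Bid (42.2 ± 6.51 CPM) followed and did not differ from each other beyond their spread. Bcl2l1 (33.0 ± 1.61 CPM), Bcl2 (30.4 ± 1.75 CPM) and Bak1 (28.1 ± 1.65 CPM) formed a run in which the SD ranges of neighbours overlapped. The sample ranges of Bid and Bcl2l1 also overlapped. Bcl2l11 (10 ± 2.42 CPM) and Bmf (2.95 ± 0.671 CPM) were set apart below, at ratios of 2.8 and 3.41 to the gene above, with no sample in common. In AG636 Mcl1 was again the highest and Bcl2l11 and Bmf the lowest, but samples of Bak1 and Bcl2l11 overlapped, at a ratio of means of 1.9. Bad and Bid, both at 32.1 CPM, had means just below that of Bcl2l1 (34.0 ± 9.6 CPM), and the SD ranges of neighbours among them overlapped.

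**Figure D1:**
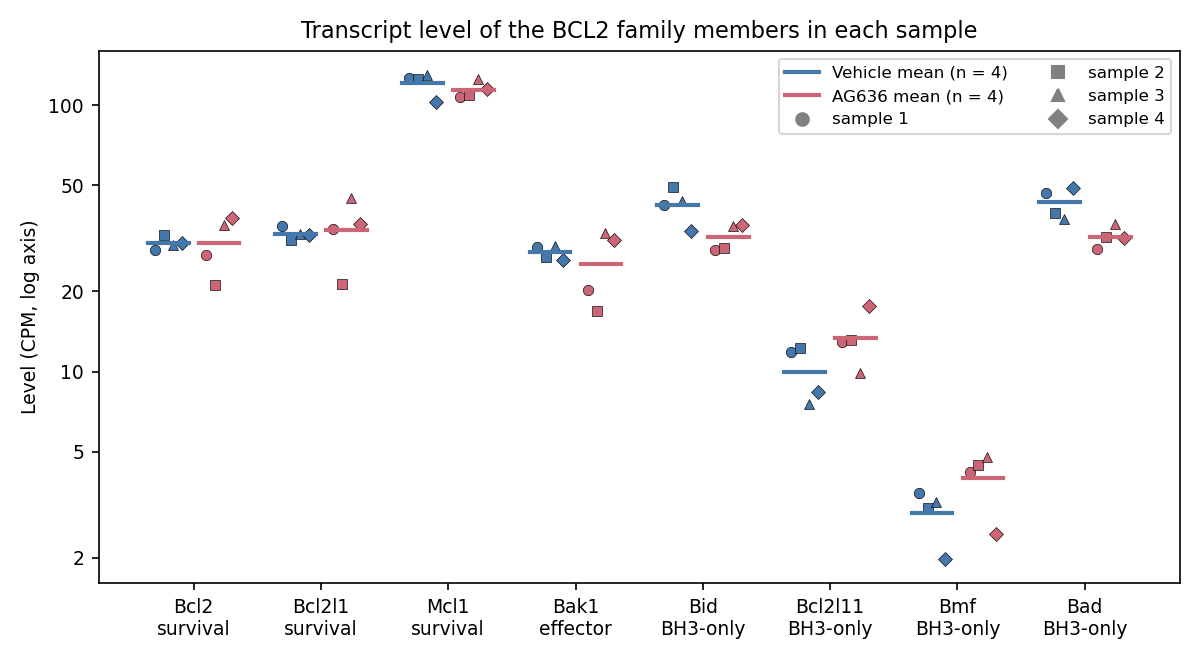
Level of each member (CPM, log axis) in the 4 Vehicle samples (blue) and the 4 AG636 samples (red), with the marker shape giving the sample number and a line at the group mean. Mcl1 lies above every other member in all samples, Bad is the member whose groups do not overlap, and Bcl2, Bcl2l1 and Bak1 spread widely in AG636.

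To examine whether AG636 altered these transcripts, the groups were compared gene by gene in limma-voom, with p-values adjusted over all 10911 genes tested and called at 0.05. Of the 8 members, 1 was called, Bad, which was lower in AG636. This is 12.5% of the members, against 14.0% of all genes tested (5.47% higher and 8.49% lower), so the family was called about as often as the background. The CPM ranges of the groups failed to overlap for 1 member, again Bad, against 22.2% of all genes tested. The median log2 fold change of the 8 members was -0.054 and that of all tested genes -0.0056. edgeR and DESeq2 likewise called Bad alone, and in each of the 3 tools 2 members, Bad and Bid, had an unadjusted p under 0.05.

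The survival genes gave no call by limma-voom, edgeR or DESeq2, and none had an unadjusted p under 0.05. Mcl1 (ENSMUSG00000038612, chromosome 3, 95658788 to 95663176, + strand, GRCm38) measured 127, 126, 130 and 103 CPM in Vehicle samples 1 to 4 and 107, 109, 125 and 115 CPM in AG636 samples 1 to 4. The AG636 values thus lay within the Vehicle range, with the lowest value of all in Vehicle sample 4. For Mcl1 the log2 change was -0.09 (SE 0.10, limma-voom adjusted p = 0.594), with a 95% interval from 0.815 to 1.09 as a fold. Without Vehicle sample 4 the log2 change was -0.14, and without that sample and AG636 sample 3 it was -0.18 (limma-voom adjusted p = 0.314 and 0.188).

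Bcl2 (ENSMUSG00000057329, chromosome 1, 106538178 to 106714274, - strand) measured 28.6, 32.7, 29.9 and 30.3 CPM in Vehicle and 27.4, 21.2, 35.6 and 37.7 CPM in AG636. Its group means were nearly equal, 30.4 and 30.5 CPM, because AG636 samples 1 and 2 lay below every Vehicle sample and samples 3 and 4 above. The log2 fold change was -0.02 (SE 0.17, adjusted p = 0.944, interval 0.76 to 1.27 as a fold). Bcl2l1 (ENSMUSG00000007659, chromosome 2, 152780668 to 152831728, - strand) measured 35.1, 31.2, 33.0 and 32.7 CPM in Vehicle and 34.2, 21.4, 44.7 and 35.8 CPM in AG636. Here sample 2 was again the lowest, sample 3 lay well above the Vehicle range and sample 4 just above it. The log2 fold change was -0.001 (SE 0.19, adjusted p = 0.997, interval 0.751 to 1.33 as a fold). The sign of Bcl2 and of Bcl2l1 turned with the scaling, to 0.04 and 0.06 with library size alone. The protein BCL-XL is the long form of the Bcl2l1 product, and a short form, BCL-XS, which promotes death, is made by alternative splicing. A 3′ count does not separate them.

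Bak1, the effector (ENSMUSG00000057789, chromosome 17, 27019810 to 27029009, - strand), measured 29.4, 27.0, 29.6 and 26.3 CPM in Vehicle and 20.2, 16.9, 33.2 and 31.2 CPM in AG636. Samples 1 and 2 lay below and samples 3 and 4 above all Vehicle samples, as for Bcl2. For Bak1 the log2 change was -0.20 (SE 0.20, adjusted p = 0.544, interval 0.646 to 1.18 as a fold). The gene lies within the span of Ggnbp1 on the other strand, which shares 357 exonic bases with it but had 347 counts in all, against 1402 for Bak1.

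Bcl2, Bcl2l1 and Bak1 were uniform in Vehicle and variable in AG636. Their coefficients of variation in Vehicle were 5.75%, 4.88% and 5.87%, no larger than counting alone would give (7.07%, 6.77% and 7.34%). In AG636 they were 25.0%, 28.2% and 31.6%, where counting would give 7.1%, 6.73% and 7.78%. The ratio of the 2 coefficients, AG636 over Vehicle, was 4.34, 5.78 and 5.39, at percentiles 93.6, 96.7 and 96.2 among all tested genes, whose median ratio was 1.45. The other 5 members had ratios of 0.657 to 1.15. Vehicle coefficients below counting noise, from 4 samples each, make the ratios of these 3 genes larger. This comparison of spread was not planned. With AG636 sample 2 left out, the log2 fold changes of Bcl2 and Bcl2l1 became 0.13 and 0.20 and that of Bak1 -0.03. Without AG636 sample 3 they were -0.11, -0.15 and -0.34, and without AG636 sample 4 they were -0.13, -0.03 and -0.30, and none was called. Erythroid genes also varied among the AG636 samples: Klf1, an erythroid transcription factor, measured 200, 239, 112 and 217 CPM in AG636 samples 1 to 4 and 167 to 183 CPM in Vehicle. Hbb-bs, the most abundant globin gene, had another order, at 2890, 2000, 3630 and 3420 CPM in the AG636 samples, and the sum of the 9 erythroid markers was 4790, 5350, 5240 and 6290 CPM. The sum of the 7 neutrophil markers was 13.8, 147, 18.5 and 179 CPM in AG636 samples 1 to 4, against 40.2 to 94.4 CPM in Vehicle. The part of cell composition in the spread of Bcl2, Bcl2l1 and Bak1 was not tested.

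Of the 4 BH3-only genes, Bad was called lower and the other 3 were not called. Bad (ENSMUSG00000024959, chromosome 19, 6941861 to 6951898, + strand), whose protein neutralises BCL2 and BCL-XL when survival kinases cease to phosphorylate it, measured 46.9, 39.3, 37.3 and 49.1 CPM in Vehicle samples 1 to 4. In AG636 samples 1 to 4 it measured 28.9, 32.1, 35.7 and 31.7 CPM, so that 4 of 4 lay below the lowest Vehicle sample. The means were 43.2 ± 5.74 and 32.1 ± 2.8 CPM (SD, n = 4), and Bad passed the test as lower by limma-voom (log2 fold change -0.42, SE 0.12, adjusted p = 0.0413, interval 0.62 to 0.898 as a fold). The gap was narrow, and with library size alone the groups touched, at 36.601 CPM in AG636 sample 3 and 36.59 CPM in Vehicle sample 3. The overlapping gene Gpr137 on the other strand shares 517 exonic bases at the 5′ end of Bad, away from the 3′ end that was read, and had 463 counts in all, against 1972 for Bad.

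The call of Bad rested on a thin margin. Its log2 fold change was negative in all 20 alternatives, from -0.49 to -0.34, but the call was lost in 12 of them. Leaving out Vehicle sample 1, 2 or 4 or AG636 sample 1, 2 or 4 gave adjusted p-values of 0.113, 0.0612, 0.107, 0.0995, 0.068 and 0.0728. Without Vehicle sample 3 or AG636 sample 3 they were 0.0494 and 0.0336, and without both Vehicle sample 4 and AG636 sample 3 the value was 0.0713.

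Bid (ENSMUSG00000004446, chromosome 6, 120891930 to 120916853, - strand), which caspase-8 cleaves to link death receptors to the mitochondrion, measured 42.1, 49.3, 43.8 and 33.6 CPM in Vehicle and 28.6, 29.2, 35.3 and 35.4 CPM in AG636. All AG636 samples lay below 3 of the Vehicle samples, and the overlap came from Vehicle sample 4. The log2 fold change was -0.39 (SE 0.14, interval 0.622 to 0.943 as a fold) and did not pass over all genes (limma-voom adjusted p = 0.0843). Without Vehicle sample 4 it was -0.47 and passed (adjusted p = 0.0415), as it did with sample quality weights (0.0403) and without both Vehicle sample 4 and AG636 sample 3 (0.0299). In each of these 3 fits Bid was the member called and Bad was not. The last 913 bases of Bid overlap the 3′ end of Bcl2l13 on the other strand, with 628 exonic bases in common, and Bcl2l13 had 8537 counts in all, against 1947 for Bid. Bcl2l13 itself had a log2 fold change of 0.44 (limma-voom adjusted p = 0.154), opposite in sign to that of Bid. Since the use of strand in counting was not stated, the level and change of Bid, and the sums that hold Bid, are uncertain.

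Bcl2l11 (ENSMUSG00000027381, chromosome 2, 128126038 to 128162547, + strand), which encodes BIM, a binder of all the survival proteins, measured 11.9, 12.3, 7.58 and 8.37 CPM in Vehicle and 12.9, 13.1, 9.89 and 17.6 CPM in AG636. Of the AG636 samples 3 lay above all Vehicle samples, and sample 3 lay among them. For Bcl2l11 the log2 change was 0.42 (SE 0.22, adjusted p = 0.234, interval 0.949 to 1.88 as a fold). Bmf (ENSMUSG00000040093, chromosome 2, 118528757 to 118549687, - strand), whose protein is held at the cytoskeleton until released, measured 3.5, 3.07, 3.25 and 1.98 CPM in Vehicle and 4.2, 4.47, 4.79 and 2.46 CPM in AG636. It too was above all Vehicle samples in 3 AG636 samples, here with sample 4 as the exception. The log2 fold change was 0.40 (SE 0.30, adjusted p = 0.409, log2 interval -0.27 to 1.06), at 13 to 30 counts per sample, so that counting alone gives a coefficient of variation of 22.6% in Vehicle. Without Vehicle sample 4 the value was 0.24, without AG636 sample 4 it was 0.64, and without Vehicle sample 4 and AG636 sample 3 it was 0.14, none of them called. Changes of the size seen in Bad were thus not detectable in Bmf at this depth.

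**Figure D2:**
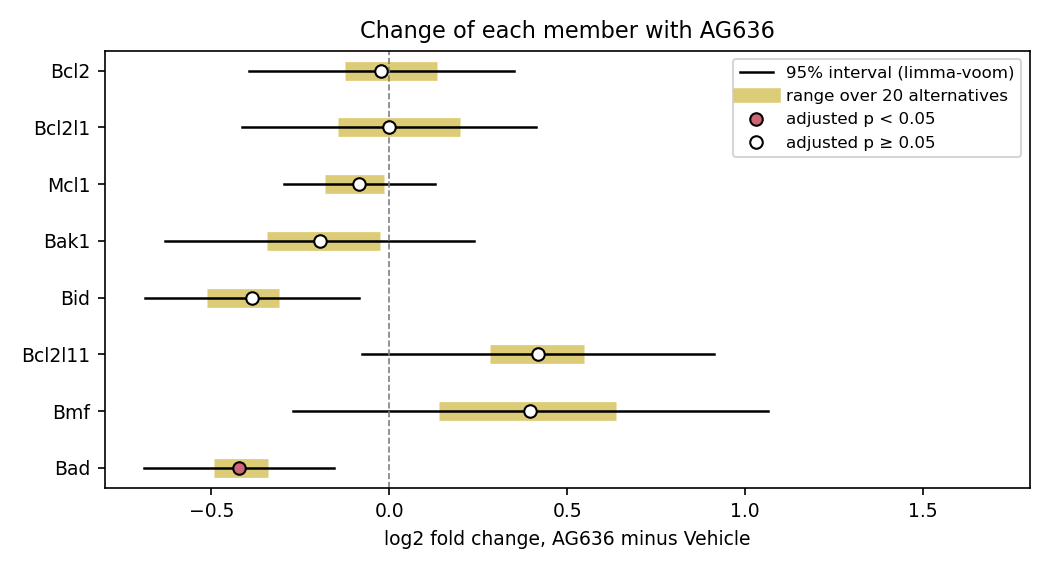
Log2 fold change of each member, AG636 minus Vehicle (points, filled where the adjusted p-value was under 0.05), with the 95% interval of the limma-voom fit (lines) and the range over 20 alternatives (bands). The intervals of Bad and Bid lie below 0, those of the other 6 members cross 0, and the bands of Bcl2 and Bcl2l1 lie on both sides of 0.

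The members were also added up by role, as a description without a test. The 3 survival genes summed to 184.7 ± 12.3 CPM in Vehicle and 178.7 ± 23.5 CPM in AG636 (SD, n = 4), with ranges of 166.4 to 192.7 and 151.5 to 205.4 CPM. The 4 BH3-only genes summed to 104, 104, 91.9 and 93.1 CPM in Vehicle and 74.6, 78.9, 85.7 and 87.2 CPM in AG636, so that all AG636 samples lay below all Vehicle samples. Bad and Bid made up most of this sum. With library size alone the sums overlapped, at 90.2 to 101 CPM in Vehicle and 76.9 to 91.2 CPM in AG636. The ratio of survival to BH3-only transcripts was 1.88 ± 0.144 in Vehicle and 2.19 ± 0.201 in AG636, with AG636 sample 2 (1.92) inside the Vehicle range. These sums hold the 4 members alone. With the BH3-only genes Bbc3 and Bik added, an alternative chosen after seeing the data, the BH3-only sum was 133.2 ± 6.61 CPM in Vehicle and 132.7 ± 8.4 CPM in AG636, and the ratio was 1.39 ± 0.0636 and 1.35 ± 0.157, so that the difference was not seen. Within the BH3-only genes, the ratio of Bcl2l11 to Bad was 0.255, 0.313, 0.203 and 0.17 in Vehicle and 0.446, 0.408, 0.277 and 0.557 in AG636, with sample 3 among the Vehicle values. This ratio pairs the BH3-only members with the largest rise and fall in these data, so it adds no separate result.

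**Figure D3:**
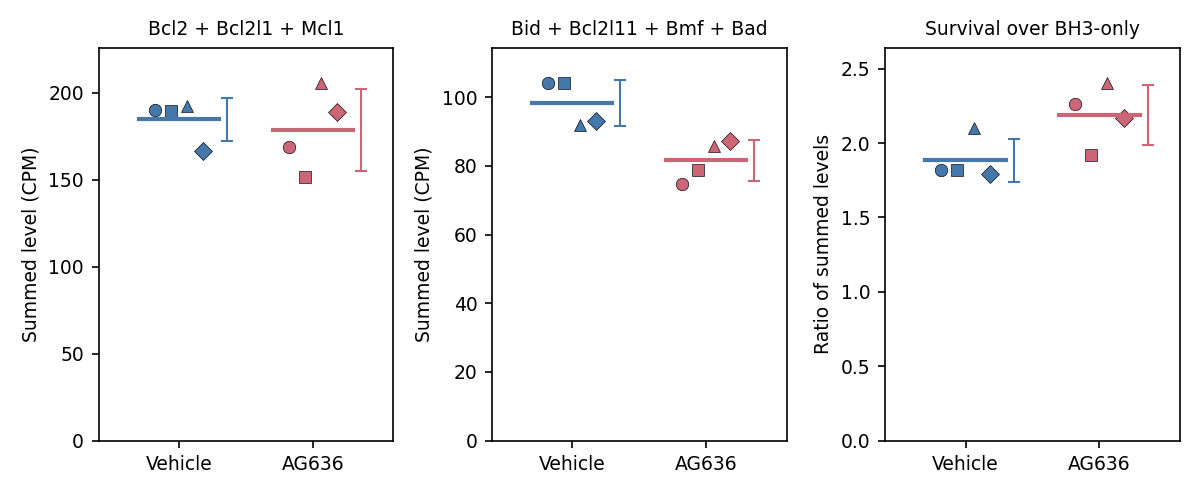
Summed level (CPM) of the 3 survival genes, summed level of the 4 BH3-only genes, and the ratio of the sums, in each of 4 Vehicle (blue) and 4 AG636 (red) samples, with the mean (line) and SD (bar) beside it. The BH3-only sums of the groups do not overlap, while the survival sums do, and with library size alone the BH3-only sums overlap as well.

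The genes whose pattern over the 8 samples was most like that of Bad were Prmt1, an arginine methyltransferase, Immt, a component of mitochondrial cristae junctions, and Paxip1, a nuclear protein of DNA repair. Their centred log2 CPM values differed from those of Bad by a root mean square of 0.0706, 0.0753 and 0.0967, the smallest among 5285 tested genes with a mean log2 CPM of at least 5, while Bad itself varied by 0.252 around its mean. Prmt1 and Immt were called lower (log2 fold changes -0.37 and -0.38, adjusted p = 0.0214 and 0.0185), and Paxip1 was not (-0.32, adjusted p = 0.0808).

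Of 15 other BCL2 family genes, 6 were tested and 2 were called by limma-voom, 1 in each direction, which is 33.3% of the tested genes against 14.0% of all genes. DESeq2 called 3, 2 of them higher. This list and those that follow were written with earlier results of these data known, so their shares are descriptions alone. Bbc3, which encodes the BH3-only protein PUMA and is a p53 target, had no overlap between groups, at 24.8 to 29.6 CPM in Vehicle and 42.3 to 52.0 CPM in AG636 (log2 fold change 0.79, SE 0.10, adjusted p = 0.00218), and was called in all 20 alternatives. Bik, a BH3-only gene whose protein resides at the endoplasmic reticulum, was lower, with a range of 6.3 to 8.98 CPM in Vehicle and 3.35 to 5.11 CPM in AG636 (-0.88, SE 0.22, adjusted p = 0.0257), at 21 to 58 counts per sample. The call of Bik was lost without Vehicle sample 1, 3 or 4 or AG636 sample 1 or 2. The effector Bax, at 10.6 ± 2.05 and 14.7 ± 3.44 CPM, had a log2 fold change of 0.45 and was not called (adjusted p = 0.188). The remaining 9 genes were too low to test, with at most 3 counts in any sample. Among them were the 3 Bcl2a1 copies, whose near-identical sequences make counts uncertain, and Pmaip1, which encodes NOXA.

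Among genes of the mitochondrial apoptosis machinery, 1 of 16 tested was called (6.25%, against 14.0% of all genes). This was Endog, a mitochondrial nuclease, which fell from 13.4 ± 2.62 to 7.47 ± 2.28 CPM (log2 fold change -0.85, SE 0.23, adjusted p = 0.033) and lost the call without any 1 of the 4 Vehicle samples, without AG636 sample 1 or 2, and with the replicate block. The median log2 fold change of the list was -0.102. Of 9 genes of the death receptor arm, with Casp2 among them, 6 were tested and none was called by limma-voom, edgeR or DESeq2, 1 (Ripk1) having an unadjusted p under 0.05 in each, with a median of -0.071.

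Of 16 genes for regulators and partners of the member proteins, all tested, 4 were called, 2 in each direction (25.0%, against 14.0% of all genes tested, with a median log2 fold change of -0.1). DESeq2 called 5. Foxo3, a forkhead factor known to activate Bcl2l11, was higher, at 157, 219, 146 and 187 CPM in AG636 against 125 to 133 CPM in Vehicle (log2 fold change 0.43, SE 0.12, adjusted p = 0.0378). Btrc, a ubiquitin ligase subunit that acts on MCL1 and many other proteins, was also higher, at 75.0 to 128 CPM against 54.5 to 67.0 CPM (0.71, SE 0.18, adjusted p = 0.0251). Both thus lay above the Vehicle range in all AG636 samples, and 22.2% of all tested genes had groups that did not overlap.

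The lower genes were Dynll1 and Huwe1. Dynll1, a dynein light chain that binds BIM, fell from 334 ± 44.2 to 242 ± 27.5 CPM (-0.46, SE 0.11, adjusted p = 0.0222). Huwe1, a ubiquitin ligase of MCL1, fell from 189 ± 12.7 to 155 ± 6.92 CPM (-0.28, SE 0.08, adjusted p = 0.0376). Calls were lost on leaving out any single Vehicle sample or AG636 sample 1, 2 or 3 for Huwe1, and any single Vehicle sample or AG636 sample 2 or 4 for Foxo3. For Btrc this was so for Vehicle sample 1, 2 or 3 or AG636 sample 1 or 2, and for Dynll1 for Vehicle sample 3 or 4 or AG636 sample 1. Huwe1 was called in only 7 of 20 alternatives, and its call was also lost with upper-quartile scaling, library size alone, no filter, at least 10 counts in every sample and the replicate block. Dynll1 lost its call with library size alone, and Foxo3 and Bik lost theirs with no filter.

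**Figure D4:**
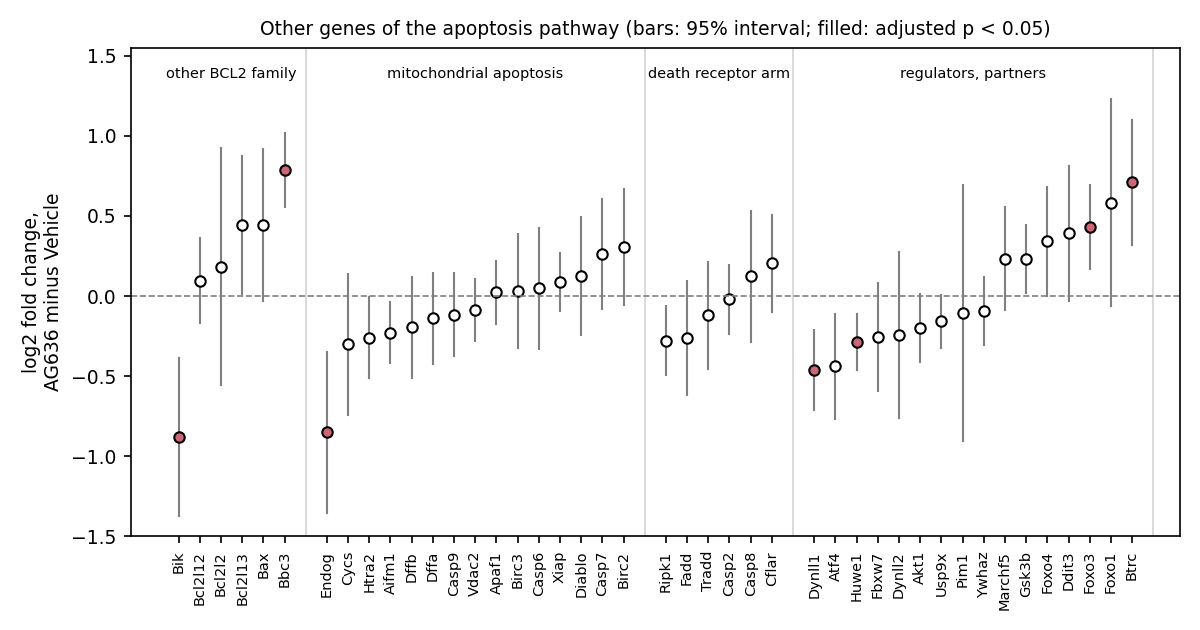
Log2 fold change, AG636 minus Vehicle, of tested genes in 4 lists around the members, 1 gene not being shown, with 95% intervals (lines) and filled points where the adjusted p-value was under 0.05. Filled points are Bik and Bbc3 in the family, Endog in the mitochondrial apoptosis machinery, and Dynll1, Huwe1, Foxo3 and Btrc among the regulators.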

How the data were processed

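The deposited values were raw read counts per Ensembl gene. Before counting, the authors dropped reads of low quality, trimmed bases from primers and poly-A tails, mapped to mm10 (GRCm38) with HISAT2 and counted per gene with featureCounts. Per the submitters' processing notes these were cutadapt 1.9.1, HISAT2 2.0.4 and Subread 1.5.0-p3, while the methods of the study name other versions for cutadapt and Subread. The use of strand and the treatment of reads mapping to several genes were not stated.

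Gene symbols were looked up by Ensembl ID, and 115 genes had none. Genes were kept by filterByExpr (minimum count 10), scaled by TMM factors and compared in R 4.3.3 by limma-voom (versions: edgeR 4.0.16 and limma 3.58.1), with group as the only term, over all 8 samples, because the study used limma. Tests were two-sided with Benjamini-Hochberg adjustment over all genes. CPM used TMM-scaled library sizes. Log2 CPM used a prior count of 2. No 2 replicates agreed within sampling noise. The scripts were tested on simulated counts.

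The members and all gene lists were chosen with earlier results of these data known. The text names every member, the called genes of each list (at most 6), overlapping genes, and the 3 genes most like a called member. The alternatives were limma-trend, DESeq2 (1.42.0) and the quasi-likelihood test of edgeR, sample quality weights, other scalings and filters, removal of mitochondrial genes, a block on replicate number, omission of each sample in turn, and a threshold of 0.01. Leaving out Vehicle sample 4 and AG636 sample 3 together, and sums with Bbc3 and Bik or at library size alone, were added after seeing the data. The ratio of Bcl2l11 to Bad and the comparison of spread between the groups were not planned either. Promoter windows came from RefSeq (GRCm38.p6), where each of the 8 members had at least 1. Protein sequences were not used here. Values of 1 gene of the lists are not reported here.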

Additional observations from a re-analysis of the deposited data

Results flagged for a closer look

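Levels of the 8 members and the total counts were examined in each group for a sample far from the rest, 18 combinations in all. In 1 of them a sample exceeded the 95% critical value of Dixon's ratio for 4 values, and chance gives about 0.9. This was Mcl1 in Vehicle, with a ratio of 0.838, where sample 4 measured 103 CPM and the others 126 to 130 CPM. Without that sample the log2 fold change of Mcl1 was -0.14 (limma-voom adjusted p = 0.314, range over all alternatives 0.188 to 0.934).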

How the results depend on the processing

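Over 20 alternatives, 6 of the 8 members kept their direction in all. No member was called with upper-quartile scaling, library size alone, no filter on low counts, the replicate block or an adjusted p under 0.01, each a count of 0 with 2 members at an unadjusted p under 0.05. Leaving out single samples gave 0 to 1 members and 688 to 1706 genes called, and the threshold of 0.01 gave 435 genes. Scaling by library size alone turned the split of called genes from 597 higher and 926 lower to 918 and 571, and the median log2 fold change of all tested genes moved from -0.0056 to 0.0641. For Bcl2 the log2 fold change turned to 0.007 in edgeR, with upper-quartile scaling and with at least 10 counts in every sample, to 0.025 in DESeq2 and to 0.043 with library size alone, with a range of -0.125 to 0.134 on leaving out samples (0.010 without Vehicle sample 2, 0.017 and 0.134 without AG636 samples 1 and 2). For Bcl2l1 it turned to 0.045 in edgeR, 0.063 in DESeq2, 0.032 with quality weights, 0.017 with RLE factors, 0.028 with upper-quartile scaling, 0.064 with library size alone, 0.029 with at least 10 counts and 0.018 without mitochondrial genes, with a range of -0.145 to 0.199 on leaving out samples (0.026 and 0.012 without Vehicle samples 1 and 4). The cause was not tested.

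The replicate numbers did not pair the samples, with correlations of deviations between same-numbered samples of -0.14, 0.014, 0.203 and 0.135. With the replicate number as a block 1446 genes and 0 members were called, Bad had an adjusted p of 0.0683 (limma-voom), and Bcl2l1 had a log2 fold change of 0.032. The depth limits Bmf. For Bcl2l11 the coefficients of variation were 24.1% in Vehicle and 23.9% in AG636, where counting alone would give 12.3% and 10.7%.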
